A study of Mus musculus with 12 samples.

Results

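The granins and the enzymes that cut, trim and amidate neuropeptides in dense-core vesicles were followed through the striatum of mice treated with L-DOPA. The group held 10 genes of the 52169 gene symbols in the transcript table, chosen by name: the granins *Vgf*, *Scg2*, *Scg3*, *Chga* and *Chgb*, the convertases *Pcsk1* and *Pcsk2*, the convertase chaperone *Scg5*, and the enzymes *Cpe* and *Pam*. Each gene was followed through its transcript with the highest mean level over all libraries, out of 65 transcripts of these genes among 189364 with a gene symbol. All 10 passed the filter on low counts in every comparison. C57BL/6J mice received the neurotoxin 6-OHDA in the right medial forebrain bundle after desipramine, which spares noradrenergic neurons, and recovered for 2 weeks. They were then given L-DOPA, the precursor of dopamine, at 10 mg/kg with 7.5 mg/kg benserazide, which blocks its conversion outside the brain. Acute L-DOPA was a single dose and chronic L-DOPA a daily dose for 9 days, and striatal tissue was taken 1 hour after the last dose. The 4 groups were the unlesioned and the lesioned striatum with acute L-DOPA and with chronic L-DOPA, with 3 RNA-seq libraries each. Every group received L-DOPA, so the comparison of the striata holds the lesion and the response of the lesioned side to the drug together, and they cannot be told apart. The tissue was punched striatum with all its cell types, in which fewer cells of a type and less RNA per cell cannot be told apart.

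Dense-core vesicles store and release neuropeptides, apart from the small vesicles that hold fast transmitters. Granins are acidic proteins that aggregate in the trans-Golgi network, help the vesicles to form and are themselves cut into peptides. The proprotein convertases encoded by *Pcsk1* and *Pcsk2* cut precursors after paired basic residues, carboxypeptidase E removes those residues, and the amidating monooxygenase encoded by *Pam* finishes the ends of many peptides. In the striatum the principal cells are medium spiny neurons (MSNs), which make enkephalin, dynorphin and substance P from such precursors.

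Libraries held between 87695043 and 173116525 counts, and a member's representative transcript held from 211 counts, for *Pcsk1*, to 66181, for *Cpe*. Levels are given as CPM, the counts of a transcript scaled to the total of its library after TMM correction, and error is the standard deviation (SD) of 3 libraries. *Fosb*, an immediate early gene of the dopamine response, was 4.67 ± 0.08 (SE) higher on the log2 scale in the lesioned striatum with acute L-DOPA and 4.94 ± 0.10 (SE) higher with chronic L-DOPA. *Drd1a*, the D1 receptor of MSNs, was lower by a log2 change of -2.30 and -1.32. Of the 6 markers of D1 MSNs, 5 including *Drd1a* were lower and 1 higher with acute L-DOPA, and *Drd1a* was lower and 2 higher with chronic L-DOPA. The dopamine-synthesis gene *Th* stood between 1.07 and 2.05 CPM in the libraries of 3 groups and at 9.63 ± 1.33 CPM in the lesioned striatum with chronic L-DOPA. The summed level of 10 markers of cortical glutamatergic neurons, none of them at 0 in any library, ran from 18.9 to 38.3 CPM in the unlesioned and from 8.69 to 24.0 CPM in the lesioned striatum with acute L-DOPA, and from 12.6 to 50.4 and from 6.85 to 29.2 CPM with chronic L-DOPA. The unlesioned library of replicate 2 with chronic L-DOPA stood apart through choroid plexus markers, at 456 CPM in sum against at most 1.59 CPM in the others.

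Per kilobase of transcript, the members spanned a 128-fold range of mean level over all libraries. In the unlesioned striatum with acute L-DOPA, *Cpe* led with 164 ± 7.88 CPM per kilobase. *Scg5* at 27.4 ± 0.53 and *Scg2* at 27.1 ± 1.65 followed and differed by less than their SD. *Vgf* at 19.3 ± 2.24 and *Chgb* at 18.9 ± 0.60 were likewise closer to each other than the SD of *Vgf*. *Scg3* at 17.5 ± 0.69, *Pcsk2* at 15.6 ± 0.96, *Chga* at 10.1 ± 0.70, *Pam* at 7.56 ± 0.06 and *Pcsk1* at 1.01 ± 0.15 CPM per kilobase completed the order. In the lesioned striatum with chronic L-DOPA the order had changed. *Cpe* was still first, at 203 ± 16.0 CPM per kilobase, but *Scg2* now reached 117 ± 17.3, *Vgf* 46.7 ± 3.04 and *Chga* 37.4 ± 1.96, all above *Scg5* at 28.3 ± 2.39. *Pcsk1* remained last with 2.04 ± 0.19 CPM per kilobase. The spread between libraries of a group was small for most members, with a median coefficient of variation of 6.15% and a highest value of 22.1%, for *Pcsk1* in the unlesioned striatum with chronic L-DOPA.

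**Figure D1:**
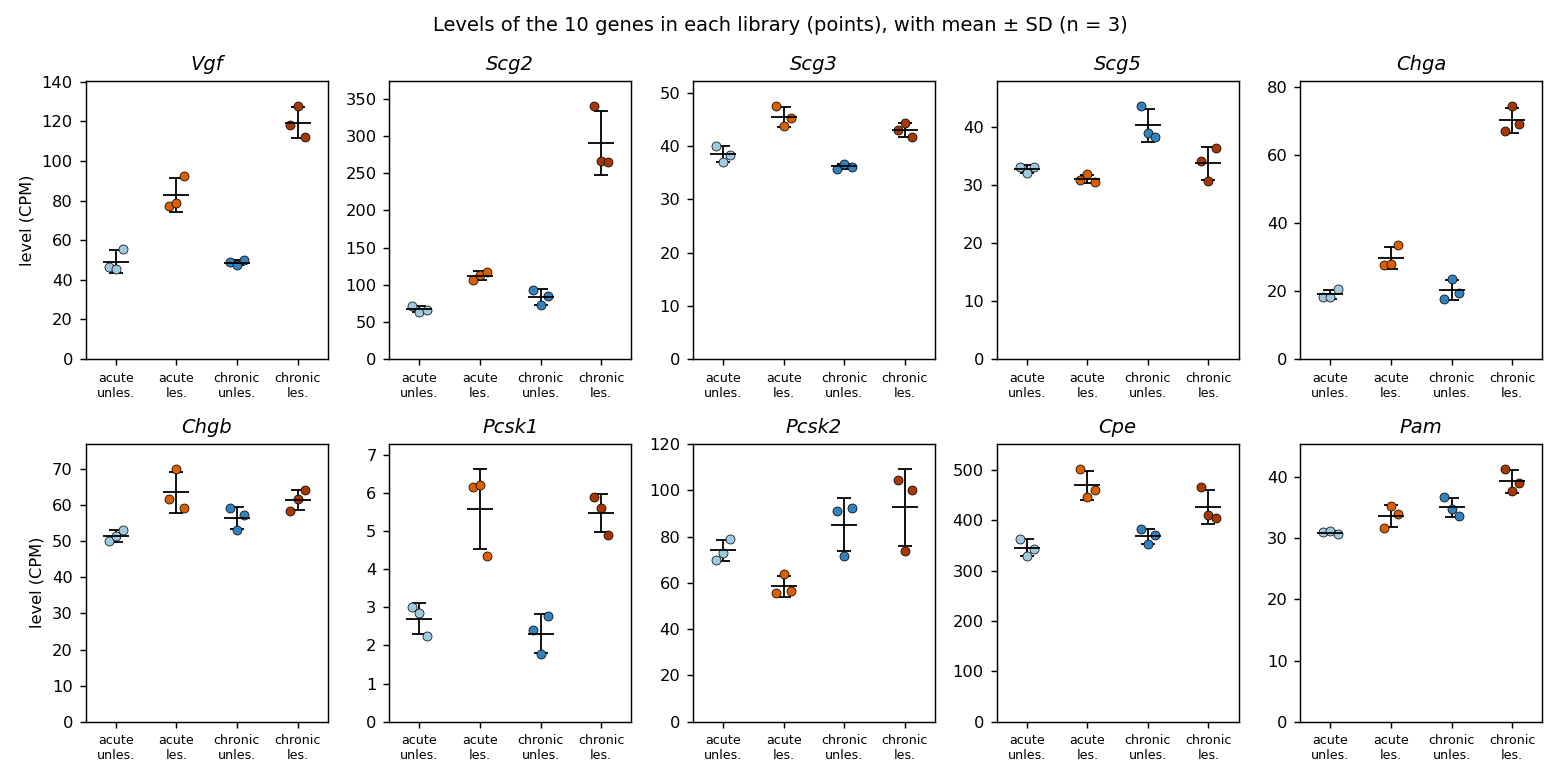
Level of each of the 10 genes in CPM (vertical axes, from 0) in the 4 groups, with a point for each library and bars for the mean ± SD (n = 3). Within each treatment, the lesioned libraries of *Vgf*, *Scg2*, *Chga*, *Pcsk1*, *Scg3*, *Cpe* and *Pam* stand above the unlesioned ones without overlap. The sides did not overlap in 34.9% of all genes with acute and 32.3% with chronic L-DOPA. *Scg2* and *Chga* stand highest in the lesioned striatum with chronic L-DOPA, at 291 and 70.3 CPM on average.

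The first comparison set the lesioned against the unlesioned side 1 hour after a single dose. Of the 10 members, 7 were higher in the lesioned striatum, 1 was lower and 2 did not pass the test (edgeR quasi-likelihood, adjusted p under 0.05). Over all genes, each by 1 transcript, 15.3% were called in this comparison, 8.16% higher and 7.16% lower. *Pcsk1* rose 2.06-fold, *Vgf* 1.69-fold, *Scg2* 1.67-fold and *Chga* 1.57-fold, while *Pcsk2* fell. The median log2 fold change of the members was 0.38, against 0.02 over all genes. The lesioned and the unlesioned libraries did not overlap in any of the 10 members, as in 34.9% of all genes.

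The same comparison was made with chronic L-DOPA. *Scg2* rose 3.48-fold, *Chga* 3.46-fold, *Vgf* 2.45-fold, *Pcsk1* 2.36-fold and *Scg3* 1.19-fold. These were the 5 members called higher, none was called lower, and 13.7% of all genes were called, 8.46% higher and 5.2% lower. DESeq2 also called 0 members lower, where it called 1034 of 19742 genes lower. At an unadjusted p under 0.05, where no share of all genes was computed, 1 member, *Scg5*, was lower. *Scg5* was also called lower with a block for the replicate number (adjusted p = 0.0224), where 11.4% of all genes were lower. It was called lower again with all 12 libraries in 1 fit (adjusted p = 0.0246), where 1776 of 20682 genes were lower. The median of the members was 0.23 on the log2 scale, against -0.01 over all genes. The libraries of the 2 sides did not overlap in 8 members, as in 32.3% of all genes, the exceptions being *Chgb* and *Pcsk2*.

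**Figure D2:**
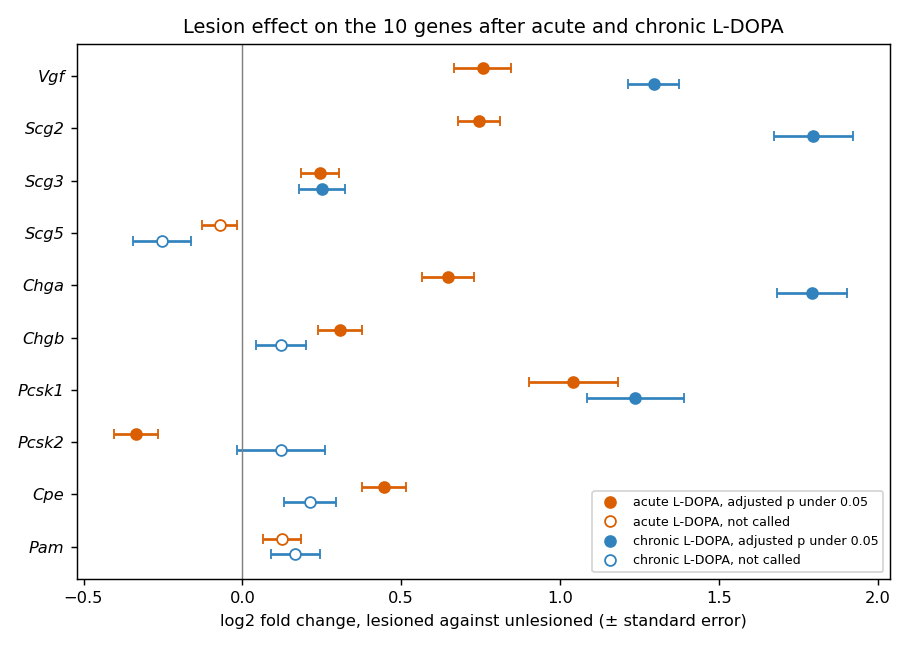
Log2 fold change of each gene in the lesioned against the unlesioned striatum (horizontal axis), with its standard error as bars, with acute L-DOPA (orange) and chronic L-DOPA (blue). Filled points have an adjusted p under 0.05. *Scg2*, *Chga* and *Vgf* lie farther to the right with chronic than with acute L-DOPA, at 1.80, 1.79 and 1.30 against 0.74, 0.65 and 0.76.

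Shown next are the sequences around the start sites of the 4 genes that rose most in the lesioned striatum with each treatment, chosen for that rise alone. Each runs 5′ to 3′ on the strand of the gene, from 250 bases before to 50 bases after the start of its RefSeq transcript, and was read from the NCBIM37 assembly, which is mm9. Capitals mark the letters of a cyclic AMP response element (CRE), searched as TGACGTCA, and of its core, searched as TGACG on both strands, so that each full CRE holds a pair of overlapping cores. The CRE is the site bound by CREB, a transcription factor that protein kinase A phosphorylates. The windows are chr5:137505915-137506214 on the plus strand for *Vgf*, chr1:79436616-79436915 on the minus strand for *Scg2*, chr13:75227185-75227484 on the plus strand for *Pcsk1* and chr12:103792929-103793228 on the plus strand for *Chga*.
Vgf: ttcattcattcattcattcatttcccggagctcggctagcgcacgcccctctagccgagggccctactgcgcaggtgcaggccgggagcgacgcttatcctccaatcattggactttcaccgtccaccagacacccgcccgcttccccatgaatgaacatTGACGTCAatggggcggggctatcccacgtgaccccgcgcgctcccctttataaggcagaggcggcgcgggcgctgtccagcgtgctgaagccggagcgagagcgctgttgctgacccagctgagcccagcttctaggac
Scg2: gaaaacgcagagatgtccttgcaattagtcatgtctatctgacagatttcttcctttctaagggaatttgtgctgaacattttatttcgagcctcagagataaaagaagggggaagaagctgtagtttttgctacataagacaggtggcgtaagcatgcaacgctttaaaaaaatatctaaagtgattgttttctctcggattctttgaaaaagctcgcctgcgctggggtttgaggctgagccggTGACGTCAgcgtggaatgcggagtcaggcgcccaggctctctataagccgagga
Pcsk1: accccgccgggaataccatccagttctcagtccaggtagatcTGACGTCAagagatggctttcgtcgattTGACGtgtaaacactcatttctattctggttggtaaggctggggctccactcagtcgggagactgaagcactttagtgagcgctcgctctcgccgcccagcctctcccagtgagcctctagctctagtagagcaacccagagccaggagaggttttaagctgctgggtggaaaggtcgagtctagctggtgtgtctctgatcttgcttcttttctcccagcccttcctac
Chga: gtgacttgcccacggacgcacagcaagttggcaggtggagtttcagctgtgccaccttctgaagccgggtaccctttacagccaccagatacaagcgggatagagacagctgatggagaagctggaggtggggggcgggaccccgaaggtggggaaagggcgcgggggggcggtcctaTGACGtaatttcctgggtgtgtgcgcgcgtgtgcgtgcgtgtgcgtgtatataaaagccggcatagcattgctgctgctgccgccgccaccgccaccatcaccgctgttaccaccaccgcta

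Counted from the start site, with no position 0, the full CRE lay at -90 to -83 in *Vgf*, at -4 to 4 in *Scg2* and at -208 to -201 in *Pcsk1*. The RefSeq transcript of *Pcsk1* starts at 75227435, whereas the transcript followed for its level starts at 75227274, within the window. The transcripts followed for *Scg5* and *Pam* also start elsewhere than their RefSeq transcripts. *Chga* held the core alone, at -72 to -68, and *Pcsk1* a further core at -180 to -176. Over 20267 windows of the same length around other RefSeq starts and these, 2.54% held the full CRE, against 3 of the 10 members. The core was in 25.0% of windows and in 8 of the 10 members, all but *Chgb* and *Pam*. The letters TGANTCA, bound by Fos and Jun dimers (AP-1) and searched on both strands, were in 6.83% of windows and in 0 of the 10. *Scg3*, *Pcsk2* and *Cpe* held a core each and *Scg5* held 3, although *Scg5* passed the test in neither lesion comparison and *Pcsk2* was lower with acute L-DOPA. A match of letters is a description of the window and no evidence of binding.

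**Figure D3:**
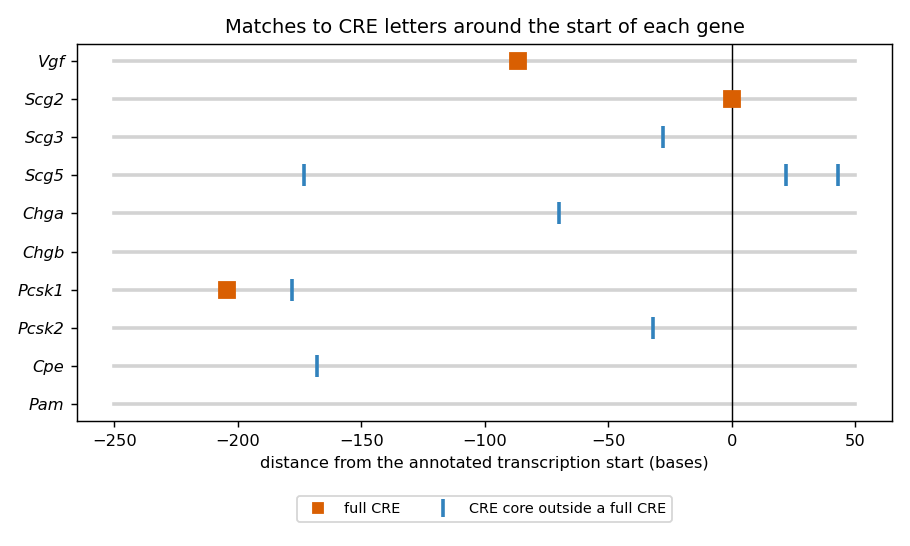
Place of the CRE letters (squares) and of cores outside a full CRE (ticks) in bases from the annotated start (horizontal axis) for each gene, with the searched window as a grey line. The 3 squares belong to *Vgf*, *Scg2* and *Pcsk1*, and *Chgb* and *Pam* have no mark.

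*Vgf*, which encodes a nerve growth factor-inducible peptide precursor, lies on chromosome 5 at 137506165-137509221 (mm9, 2 exons). In the unlesioned striatum it was at 46.5, 45.3 and 55.7 CPM with acute L-DOPA and at 48.7, 47.2 and 49.9 CPM with chronic L-DOPA. In the lesioned striatum it was at 77.4, 78.6 and 92.5 CPM with acute and at 118, 128 and 112 CPM with chronic L-DOPA. The unlesioned libraries thus formed 1 range for both treatments, and every lesioned library stood above it. The log2 fold change was 0.76 ± 0.09 (SE, adjusted p = 0.00021) with acute and 1.30 ± 0.08 (SE, adjusted p = 2.74e-06) with chronic L-DOPA.

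*Scg2* encodes secretogranin II, the precursor of secretoneurin, and lies on chromosome 1 at 79431244-79436665 (2 exons). With acute L-DOPA its level was 71.8, 63.7 and 66.4 CPM in the unlesioned and 107, 113 and 118 CPM in the lesioned striatum. With chronic L-DOPA it was 93.5, 73.0 and 84.4 CPM in the unlesioned and 340, 267 and 265 CPM in the lesioned striatum. The lowest lesioned library with chronic L-DOPA was thus above the highest of every other group. The log2 fold change was 0.74 ± 0.07 (SE, adjusted p = 1.71e-05) with acute and 1.80 ± 0.12 (SE, adjusted p = 6.5e-06) with chronic L-DOPA. Lesioned replicate 1 was the highest with chronic L-DOPA, and leaving out any 1 library kept the change between 1.67 and 1.88.

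*Chga* encodes chromogranin A, the founding member of the granins, and lies on chromosome 12 at 103793179-103803237 (8 exons). Its level was 18.4, 18.2 and 20.6 CPM in the unlesioned and 27.7, 28.0 and 33.6 CPM in the lesioned striatum with acute L-DOPA. With chronic L-DOPA the unlesioned libraries held 17.8, 23.6 and 19.5 CPM and the lesioned libraries 67.3, 74.4 and 69.2 CPM. The groups of lesioned libraries were separated from each other and from all unlesioned libraries. The log2 fold change was 0.65 ± 0.08 (SE, adjusted p = 0.000329) with acute and 1.79 ± 0.11 (SE, adjusted p = 2.34e-06) with chronic L-DOPA.

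The other granins had smaller lesion effects. *Chgb*, for chromogranin B (chromosome 2 at 132607014-132620808), was at 49.97, 51.4 and 53.2 CPM in the unlesioned and at 61.7, 70.0 and 59.2 CPM in the lesioned striatum with acute L-DOPA, a log2 change of 0.31 ± 0.07 (SE, adjusted p = 0.013). This call was lost without lesioned replicate 2 (0.23, adjusted p = 0.0556), unlesioned replicate 1 (0.29, adjusted p = 0.0602) or unlesioned replicate 2 (0.31, adjusted p = 0.0505). With chronic L-DOPA the unlesioned libraries held 59.1, 53.0 and 57.3 CPM and the lesioned 58.4, 61.7 and 64.1 CPM, so that the sides overlapped. The log2 change was then 0.12, with a 95% interval from -0.05 to 0.30 (adjusted p = 0.377).

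*Scg3*, which encodes a granin that binds chromogranin A to the vesicle membrane (chromosome 9 at 75491173-75531863), stood at 40.1, 37.1 and 38.4 CPM in the unlesioned and at 47.5, 43.7 and 45.3 CPM in the lesioned striatum with acute L-DOPA. With chronic L-DOPA it was at 35.8, 36.6 and 36.1 CPM in the unlesioned and at 43.1, 44.3 and 41.7 CPM in the lesioned striatum. All lesioned libraries were above all unlesioned ones, and the change was of the same size after both treatments, 0.24 ± 0.06 (SE, adjusted p = 0.0206) and 0.25 ± 0.07 (SE, adjusted p = 0.0472) on the log2 scale. Both calls were close to the threshold. The acute call was lost without unlesioned replicate 2 (0.22, adjusted p = 0.102) or 3 (0.24, adjusted p = 0.0636), and the chronic call was lost when any 1 of the 6 libraries was left out (0.24 to 0.28, adjusted p from 0.0798 to 0.142), without the filter on low counts (adjusted p = 0.0722) and with the cortical marker score as a covariate (adjusted p = 0.151).

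*Pcsk1* encodes the convertase PC1/3 and lies on chromosome 13 at 75227274-75269946 (14 exons). It was the least abundant member, with 3.02, 2.84 and 2.25 CPM in the unlesioned and 6.14, 6.21 and 4.35 CPM in the lesioned striatum with acute L-DOPA. With chronic L-DOPA the values were 2.41, 1.76 and 2.77 CPM in the unlesioned and 5.89, 5.61 and 4.91 CPM in the lesioned striatum. Lesioned libraries of both treatments thus shared a range from 4.35 to 6.21 CPM, above every unlesioned library. The log2 fold change was 1.04 ± 0.14 (SE, adjusted p = 0.000537) with acute and 1.24 ± 0.15 (SE, adjusted p = 0.000452) with chronic L-DOPA.

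*Pcsk2* encodes the convertase PC2 and lies on chromosome 2 at 143371869-143642020 (12 exons). It was lower in the lesioned striatum with acute L-DOPA, at 55.7, 63.9 and 56.4 CPM against 70.1, 73.1 and 79.0 CPM, a log2 change of -0.33 ± 0.07 (SE, adjusted p = 0.00918). When all 12 libraries shared 1 estimate of the spread, the same change of -0.34 did not pass (adjusted p = 0.103). With chronic L-DOPA the lesioned libraries held 104, 73.7 and 100.01 CPM and the unlesioned libraries 91.2, 71.9 and 92.6 CPM, with a log2 change of 0.12 and a 95% interval from -0.19 to 0.43 (adjusted p = 0.643). Replicate 2 was the lowest on both sides there. Exons annotated to *C630020P19Rik* and *Gm12360* on the opposite strand overlap those of *Pcsk2* by 260 and 77 bases, and whether reads were counted by strand is not stated, so their reads cannot be told apart.

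*Scg5* encodes the chaperone that PC2 needs for its maturation and that also inhibits it (chromosome 2 at 113616524-113669267). With acute L-DOPA it was at 33.1, 32.0 and 33.1 CPM in the unlesioned and at 30.8, 31.8 and 30.5 CPM in the lesioned striatum, a log2 change of -0.07 with a 95% interval from -0.19 to 0.05 (adjusted p = 0.421). With chronic L-DOPA it was at 43.5, 38.9 and 38.2 CPM in the unlesioned and at 34.2, 30.7 and 36.3 CPM in the lesioned striatum. The lesioned side was lower in each same-numbered pair, with ratios from 0.785 to 0.951. The log2 change of -0.25 ± 0.09 (SE) did not pass in the fit of these 6 libraries (adjusted p = 0.102). It passed without pairing when all 12 libraries shared 1 fit (-0.25, adjusted p = 0.0246) and with a block for the replicate number (-0.25, adjusted p = 0.0224).

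*Cpe*, for carboxypeptidase E (chromosome 8 at 67071339-67171837), was at 363, 330 and 344 CPM in the unlesioned and at 502, 447 and 460 CPM in the lesioned striatum with acute L-DOPA. The lesioned libraries stood above the unlesioned ones by 0.45 ± 0.07 (SE) on the log2 scale (adjusted p = 0.0014). With chronic L-DOPA it was at 382, 352 and 370 CPM in the unlesioned and at 465, 411 and 404 CPM in the lesioned striatum. The sides again did not overlap, but the log2 change of 0.21 ± 0.08 (SE) did not pass (adjusted p = 0.131). It passed with the replicate number as a block (0.21, adjusted p = 0.0233). With the block, 6 members were called higher and 1 lower with chronic L-DOPA, where 24.2% of all genes were called, 12.8% higher and 11.4% lower.

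*Pam* lies on chromosome 1 at 99717671-99992198 (26 exons). It was at 31.0, 31.1 and 30.7 CPM in the unlesioned and at 31.7, 35.2 and 34.0 CPM in the lesioned striatum with acute L-DOPA. With chronic L-DOPA it was at 36.7, 34.9 and 33.6 CPM in the unlesioned and at 41.3, 37.7 and 39.0 CPM in the lesioned striatum. It passed the test in neither comparison, with a log2 change of 0.12 (95% interval from -0.003 to 0.25, adjusted p = 0.185) and of 0.17 (95% interval from -0.004 to 0.34, adjusted p = 0.203).

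Whether the lesion effect differed between the treatments was tested as an interaction over all 12 libraries. It was larger with chronic L-DOPA for 3 of the 10 members and smaller for none, where 5.1% of all genes were called, 3.53% with a larger and 1.56% with a smaller effect. With the replicate block, 13.4% of all genes were called, 7.3% with a larger and 6.13% with a smaller effect. DESeq2 called the same counts, 3 and 0, where it called 941 of 20682 genes with a larger and 433 with a smaller effect. At an unadjusted p under 0.05 there were 4 members with a larger and 1 with a smaller effect. The share of all genes at that threshold was not computed. The effect on *Chga* was larger by 1.15 ± 0.14 (SE, adjusted p = 0.000252), that on *Scg2* by 1.06 ± 0.15 (SE, adjusted p = 0.000601) and that on *Vgf* by 0.54 ± 0.13 (SE, adjusted p = 0.0232) on the log2 scale. The call of *Vgf* was lost without acute lesioned replicate 1 (0.49, adjusted p = 0.0614), acute lesioned replicate 2 (0.51, adjusted p = 0.0637) or acute unlesioned replicate 3 (0.44, adjusted p = 0.0599).

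For *Pcsk1*, the difference of the lesion effects was 0.19 with a 95% interval from -0.30 to 0.69 (adjusted p = 0.701), which leaves room for a change as large as that of *Vgf*. For *Scg3* it was 0.01 with an interval from -0.17 to 0.19 (adjusted p = 0.968). For *Pcsk2*, which was lower with acute and did not pass with chronic L-DOPA (0.12, with an interval from -0.19 to 0.43), the difference of 0.46 ± 0.17 (SE) did not pass either (adjusted p = 0.157). It passed with the replicate number as a block (0.45, adjusted p = 0.00489), where 13.4% of all genes passed, and without chronic lesioned replicate 2 (0.61, adjusted p = 0.0149). *Cpe* at -0.23 and *Chgb* at -0.18 had smaller fitted effects with chronic L-DOPA, with intervals from -0.45 to -0.01 and from -0.40 to 0.04, and neither passed (adjusted p = 0.234 and 0.368).

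The lesioned striata of the 2 treatments were also compared directly. With chronic L-DOPA, 4 of the 10 members were higher than with acute L-DOPA and none was lower, in a comparison where 25.6% of all genes were called, 12.5% higher and 13.1% lower. DESeq2 also called 4 and 0, where it called 2225 of 19790 genes higher and 2242 lower. At an unadjusted p under 0.05 the counts were 5 and 0, and the share of all genes there was not computed. *Scg2* was 2.59-fold, *Chga* 2.36-fold, *Pcsk2* 1.58-fold and *Vgf* 1.44-fold higher, with log2 changes of 1.37 ± 0.10, 1.24 ± 0.09, 0.66 ± 0.12 and 0.53 ± 0.09 (SE) and adjusted p values of 1.19e-05, 8.99e-06, 0.00364 and 0.00239. *Pam* was 0.23 higher with an adjusted p of 0.0503. It passed without chronic lesioned replicate 2 (0.26, adjusted p = 0.0292), with 1 transcript per gene (0.24, adjusted p = 0.0398), with counts summed per gene (0.24, adjusted p = 0.0488) and with all 12 libraries in 1 fit (0.23, adjusted p = 0.0177). For *Pcsk1* the log2 change was -0.03, with a 95% interval from -0.32 to 0.27. The median of the members was 0.17, against -0.02 over all genes, and the 2 groups did not overlap in 5 members, as in 42.1% of all genes.

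Markers of several cell types moved in the same comparison of lesioned striata. All 5 oligodendrocyte markers were lower with chronic L-DOPA in edgeR's test and 2 of them in DESeq2, where their sum ran from 1101 to 1988 CPM against 2004 to 3339 CPM with acute L-DOPA. Of 5 microglial and 5 astrocyte markers, 3 each were lower, as were 2 of 3 blood markers. Of the 6 markers of D1 MSNs, *Pdyn*, *Drd1a* and *Isl1* were higher. The sum of the list was between 134 and 148 CPM with acute and between 290 and 337 CPM with chronic L-DOPA, and *Pdyn*, which is itself a peptide precursor, made up most of that difference at 18.1 and 185 CPM. *Drd1a* was at 13.5 and 28.0 CPM and *Isl1* at 1.93 and 4.22 CPM. Of 6 markers of D2 MSNs, 3 were lower. Among interneurons, 3 of 4 cholinergic markers were lower (*Chat*, *Slc5a7* and *Lhx8*), with a list sum of 17.6 to 20.2 CPM against 22.4 to 27.9 CPM. Of 4 somatostatin interneuron markers, the peptide precursors *Sst* and *Npy* were higher and *Nos1* lower, with a list sum of 77.3 to 88.4 CPM against 58.5 to 64.6 CPM.

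Cell type markers also moved between the striata. With acute L-DOPA 5 of 6 D2 markers were higher and 1 lower in the lesioned striatum, with a sum of 881 to 954 CPM against 520 to 611 CPM, and 4 of 6 markers shared by striatal MSNs were lower, with a sum of 1383 to 1494 CPM against 1609 to 1943 CPM. With chronic L-DOPA 2 D2 markers were higher and 1 lower, with a sum of 806 to 1073 CPM against 514 to 550 CPM. *Penk*, itself a peptide precursor, made up most of these D2 sums. It went from 353 to 675 CPM with acute and from 362 to 785 CPM with chronic L-DOPA. The median log2 change of the D2 markers was 0.48 with acute and 0.09 with chronic L-DOPA. Of 5 astrocyte markers 2 were higher with acute and 1 with chronic L-DOPA, and *Gfap* rose by 1.25 ± 0.15 and 1.96 ± 0.24 (SE). On the lesioned side with chronic L-DOPA, *Sst* and *Npy* were also higher and *Nos1* and *Slc5a7* lower. No marker of these lists was at 0 in any library. Their part in the changes of the granins was not tested in either comparison.

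In the unlesioned striatum, chronic was compared with acute L-DOPA. *Scg5* was the 1 member called, higher by 0.30 ± 0.07 (SE, adjusted p = 0.0487), where 3.07% of all genes were called, 1.07% higher and 1.99% lower. The groups did not overlap in 4 members, as in 26.4% of all genes. Its 3 values with chronic L-DOPA, 38.2 to 43.5 CPM, were all above those with acute L-DOPA, 32.0 to 33.1 CPM. The call was lost when any of 5 of the 6 libraries was left out, with adjusted p values up to 0.193, and it held without chronic unlesioned replicate 2, the library with choroid plexus markers, where 12.1% of all genes were called and *Scg2* (0.40, adjusted p = 0.00594) and *Pcsk2* (0.31, adjusted p = 0.015) passed as well. The share of all genes called moved with single libraries, to 0.0726%, 0.0679% and 0.703% without acute unlesioned replicates 1, 2 and 3, and to 0.766% and 0.389% without chronic unlesioned replicates 1 and 3. With all libraries *Scg2* was higher by 0.31 ± 0.09 (SE, adjusted p = 0.0819). For the other genes with strong lesion effects the intervals were narrow for *Vgf*, from -0.20 to 0.17, and wider for *Chga*, from -0.13 to 0.31, and *Pcsk1*, from -0.57 to 0.12. Of the cell type markers, 2 of 5 for astrocytes (*Aqp4* and *Gja1*), 1 of 5 for microglia (*Tmem119*), 1 of 6 for D1 MSNs (*Sfxn1*) and 1 of 6 for D2 MSNs (*Drd2*) were lower here with chronic L-DOPA, by log2 changes from -0.63 to -0.33. The cortical marker *Cux2* and the dopamine neuron marker *Ddc* were higher. The astrocyte list summed to 131 to 147 CPM with chronic and 155 to 171 CPM with acute L-DOPA. The part of these markers in the change of *Scg5* was not tested.

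The summed cortical markers had a median of 19.4 CPM in the unlesioned and 8.79 CPM in the lesioned libraries with acute L-DOPA, and of 31.1 and 8.52 CPM with chronic L-DOPA. The median log2 change was -1.07 for the 10 markers with acute L-DOPA and -1.45 for the 9 tested with chronic L-DOPA. In edgeR's test 1 marker passed in each direction with acute and 0 of 9 with chronic L-DOPA. DESeq2 also called 0 of these 9, and 2 were lower at an unadjusted p under 0.05. The mean log2 level of the list was lower on the lesioned side in every same-numbered pair. With acute L-DOPA it went from 0.87 to 0.26, from -0.05 to -1.42 and from -0.07 to -1.59. With chronic L-DOPA it went from 0.58 to 0.31, from -0.80 to -1.75 and from 1.08 to -2.02. With the mean log2 level of this list as a covariate, the lesion effect with acute L-DOPA was 0.64 for *Vgf*, 0.72 for *Scg2*, 0.54 for *Chga* and 1.24 for *Pcsk1*. With chronic L-DOPA it was 1.31, 2.02, 1.67 and 1.498 for the same genes. All 8 values passed the test, the highest adjusted p being 0.00131. Without the library that held choroid plexus markers, the chronic lesion effects of these 4 genes were 1.27, 1.71, 1.91 and 1.07, and all passed.

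Transcripts of a gene share reads, so those of 1 gene are not independent. Over all transcripts, 12.9% were called in the acute and 12% in the chronic lesion comparison, 23.3% between the lesioned and 2.61% between the unlesioned groups. The 3 transcripts of *Scg2* rose by 0.70 to 0.76 with acute and by 1.80 to 1.82 with chronic L-DOPA, and the 3 of *Pcsk1* by 1.04 to 1.23 and by 1.24 to 1.38. The 6 transcripts of *Chgb* spread more widely, from 0.31 to 0.71 with acute L-DOPA, all of them called. Of the 8 transcripts of *Pcsk2*, 6 were tested and all 6 were lower with acute L-DOPA, by -0.48 to -0.27. *Pam* had 21 transcripts, and 8 of them were higher in the chronic than in the acute lesioned striatum. Of the 9 transcripts of *Scg5*, 5 were higher in the unlesioned striatum with chronic than with acute L-DOPA. In the chronic lesion comparison 1 of the 9 was lower (-0.32, adjusted p = 0.0439) and the rest did not pass.

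The listed peptide precursors changed in both directions. Of 19 precursor genes tested, 5 were higher and 3 lower in the lesioned striatum with acute L-DOPA (42.1%, against 15.3% of all genes). Their median was 0.45, which is the value of *Gnas* (0.45 ± 0.07, SE), counted in the list and 1 of the 5. The largest rises were in *Cartpt*, for the cocaine- and amphetamine-regulated transcript peptide (2.48 ± 0.38, SE, from 0.44 to 2.58 CPM), *Nts*, for neurotensin (1.71 ± 0.20, from 1.08 to 3.51 CPM), and *Penk*, for proenkephalin (0.94 ± 0.07, from 353 to 675 CPM). The falls were in *Pdyn*, for prodynorphin (-0.76 ± 0.07, from 30.7 to 18.1 CPM), *Vip* (-1.06 ± 0.29, from 0.32 to 0.16 CPM) and *Bdnf*, a growth factor precursor (-1.88 ± 0.56, from 0.33 to 0.08 CPM). Of 9 alternative settings, *Vip* was called under 7 and *Bdnf* under 4. The cortical markers had a median of -1.07 in the same comparison, and their part in these low levels was not tested.

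With chronic L-DOPA 19 precursors were again tested, with *Gal* in and *Cort* out, and 9 were higher and 0 lower in edgeR's test (47.4%, against 13.7% of all genes), with a median of 0.70. Of the 18 tested with both treatments, 8 were higher with chronic L-DOPA, with a median of 0.67. DESeq2 called 9 precursors higher and 1 lower, where it called 1684 of 19742 genes higher and 1034 lower. At an unadjusted p under 0.05, 2 were lower, and the share of all genes there was not computed. *Pdyn* now rose by 2.50 ± 0.15 (SE), from 32.6 ± 7.32 to 185 ± 8.12 CPM, and *Trh*, for thyrotropin-releasing hormone, by 2.46 ± 0.12, from 1.27 to 6.99 CPM. *Gal*, for galanin, is 1 of the 9 but passed the filter on low counts through the group where it was high. It was at 0.34 to 0.46 CPM in the lesioned striatum with chronic L-DOPA and at 0.01 to 0.08 CPM in the unlesioned striatum, a level of few counts at which its fold is uncertain. Thus *Pdyn* fell with acute and rose with chronic L-DOPA, whereas *Scg2*, *Chga* and *Vgf* rose with both.

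Of 18 other processing enzymes tested, 2 were higher and 1 lower with acute L-DOPA (median 0.01), a share of 16.7% that was near the 15.3% of all genes. With chronic L-DOPA 4 were higher and 1 lower (median 0.04), or 27.8% against 13.7% of all genes. *Atp7a*, the copper transporter that supplies *Pam*, rose by 0.62 ± 0.16 (SE) and 1.16 ± 0.19, called under 7 and 9 of 9 alternative settings, and *Ctsl*, for cathepsin L, by 0.56 ± 0.06 with acute L-DOPA. *Mbtps1*, for the site-1 protease, fell by 0.22 ± 0.07 (SE, adjusted p = 0.0489) and was called under 6 of 9 alternative settings. With chronic L-DOPA *Furin*, the convertase of the constitutive pathway, rose by 0.67 ± 0.09, from 5.86 to 9.32 CPM, while *Qpct*, for glutaminyl cyclase, fell by 0.48 ± 0.12 and was called under 8 of 9.

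Of 33 genes of the vesicle membrane, of vesicle formation and of release, 2 were higher and 2 lower with acute L-DOPA (median -0.03), a share of 12.1% that was near the 15.3% of all genes. With chronic L-DOPA 5 were higher and 2 lower (median 0.08), or 21.2% against 13.7% of all genes. The synaptotagmins *Syt7*, a calcium sensor, and *Syt4* rose after both, by 0.51 ± 0.06 and 0.31 ± 0.07 (SE) and then by 0.81 ± 0.08 and 0.71 ± 0.09. *Syt9* fell after both, by 0.39 ± 0.08 and 0.58 ± 0.13. *Doc2b* turned its direction, since it fell by 0.33 ± 0.06 with acute L-DOPA, from 29.2 to 23.2 CPM, and rose by 0.54 ± 0.09 with chronic L-DOPA, from 27.0 to 39.3 CPM. The change of its lesion effect was 0.88 ± 0.10 (SE, adjusted p = 0.00016). *Ptprn*, a transmembrane protein of dense-core vesicles, rose by 0.72 ± 0.11 with chronic L-DOPA, from 119 ± 10.8 to 195 ± 27.3 CPM, and *A630007B06Rik*, now named *Ccdc186* and involved in vesicle maturation, fell by 0.39 ± 0.10 and was called under 8 of 9 alternative settings.

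**Figure D4:**
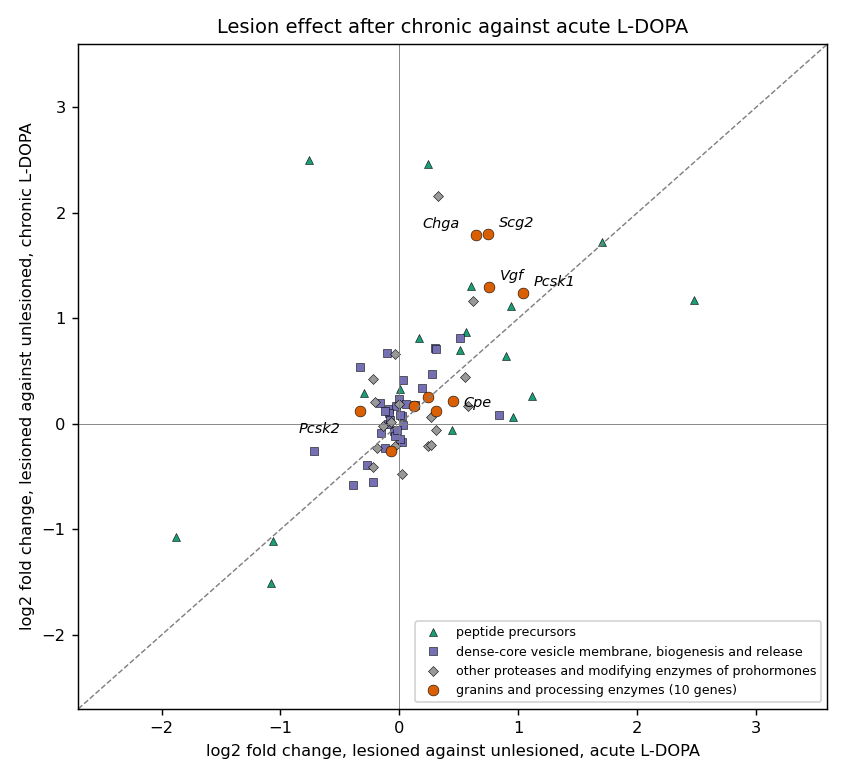
Log2 fold change in the lesioned against the unlesioned striatum after acute (horizontal axis) and chronic L-DOPA (vertical axis) for the 10 genes (orange circles) and for the precursors (triangles), vesicle genes (squares) and other enzymes (diamonds) tested in both. *Scg2*, *Chga* and *Vgf* lie above the dashed line of equal change, by 1.06, 1.15 and 0.54 in the test of the difference, and *Pcsk1* lies close to it.

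Among 12786 other genes with a mean of at least 1 CPM, the genes most like *Pcsk1* over the 12 libraries, by Pearson's r of log2 CPM, included *AK135066* (0.98), *Plat* (0.96), *Dio2* (0.95) and *Vps37b* (0.95). *AK135066* lies at 75270070-75272305 on chromosome 13, just past the annotated end of *Pcsk1* on the same strand. *Plat*, for tissue plasminogen activator, went from 5.68 to 10.6 CPM with acute and from 5.34 to 9.85 CPM with chronic L-DOPA. The genes most like *Scg2* were *2700081O15Rik* (0.99), *Pde1c* (0.99), *Hey1* (0.99), *Rasl11a* (0.98) and *6330403K07Rik* (0.98). *Hey1*, a Notch target, stood at 12.7 and 17.8 CPM in the unlesioned and lesioned striatum with acute and at 13.0 and 36.4 CPM with chronic L-DOPA. These likenesses rest on libraries that fall into the 4 groups and carry no test.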

How the data were processed

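RNA-seq libraries of 12 striatal samples, 3 in each of 4 groups, were analysed. The authors made TruSeq libraries, mapped them to mm9 and deposited raw counts of reads for each transcript. How reads with several positions or either strand were treated is not given in the sources used here. Of 189660 transcripts, 296 without a gene symbol (0.0485% of counts) were left out. The deposited normalized expression values and the authors' DESeq comparison tables (p-values, fold changes and per-sample values) were not used, in all 48 columns of per-sample values.

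The counts were filtered with filterByExpr by group, scaled with TMM and fitted with edgeR 4.0.16 (R 4.3.3, limma 3.58.1; glmQLFit, glmQLFTest) over all transcripts, with 6 libraries for each comparison of 2 groups and 12 for the interaction. p-values were adjusted after Benjamini and Hochberg over all transcripts tested, and a transcript was called at an adjusted p under 0.05. Standard errors came from the F statistic and 95% intervals from the moderated degrees of freedom. Tested on simulated counts for the acute comparison over 128675 transcripts, the fit recovered 82.6% of changes of 0.6 and 100% of changes of 1 on the log2 scale, and 5.53% of its calls were false. The simulated transcripts were drawn independently at the fitted trend of spread, without shared reads or pairing of the sides, and most were unchanged. These rates hold for that setting and may differ for the real counts. DESeq2 1.42.0 served as an alternative, and the other alternatives were its size factors, no filter on low counts, a stricter threshold, 1 transcript or the summed counts per gene, all 12 libraries in 1 fit, the replicate number as a block, a cortical marker score and leaving out each library.

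The series counts 12 mice, 3 per condition, whereas the paper describes the unlesioned side as a within-subject control. Deviations from the group means over 7021 genes correlated between same-numbered libraries of the 2 sides at 0.515, 0.418 and 0.441 after acute L-DOPA. After chronic L-DOPA the values were 0.568, 0.601 and 0.147. Other-numbered libraries ran from -0.407 to -0.0799 after acute and from -0.552 to 0.196 after chronic L-DOPA. The numbers were taken to pair the sides, although replicate 3 with chronic L-DOPA lay within the range of other-numbered libraries. No 2 libraries were identical. With 3 libraries a group, an exact permutation test cannot go below p = 0.1, and none was run.

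The 10 members are the genes of the rule, each by its transcript with the highest mean CPM. From the 3 gene lists, the 3 largest called rises and falls in each lesion comparison are named, and for the member with the largest change in each lesion comparison the 5 genes most like it. Of the genes this rule selects, 2 are not reported here. The members and lists were chosen with earlier results of these data known. Counts of reads without molecular identifiers are not counts of molecules.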

Additional observations from a re-analysis of the deposited data

Results flagged for a closer look

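The lesion effect of 3 members differed between acute and chronic L-DOPA by the interaction test (edgeR quasi-likelihood over 12 libraries, adjusted over all transcripts). It was larger after chronic L-DOPA by 1.15 on the log2 scale for *Chga*, by 1.06 for *Scg2* and by 0.54 for *Vgf*. Over all genes 5.1% were called, 3.53% with a larger and 1.56% with a smaller effect. In same-numbered pairs the lesioned libraries were 1.51 to 1.63 times the unlesioned ones for *Chga* after acute L-DOPA. After chronic L-DOPA they were 3.15 to 3.78 times as high. For *Scg2* the ratios were 1.49 to 1.77 and 3.13 to 3.66, and for *Vgf* 1.66 to 1.73 and 2.25 to 2.70. For *Pcsk1* they were 1.94 to 2.19 and 1.77 to 3.18. These ratios come from the same libraries as the test and are no further support for it.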

How the results depend on the processing

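The counts of members called higher and lower kept within 1.5 times of the reported count under most settings. Exceptions were the acute lesion effect with all 12 libraries in the fit, where 0 members were lower in place of 1, and the chronic lesion effect, where 1 member in place of 0 was lower with all 12 libraries and with the replicate block. Over all genes, 1024 of 20682 were lower in the first of these fits, and 1776 of 20682 and 2259 of 19742 in the others. In the unlesioned striatum the 1 member called higher became 2 with DESeq2 and with the cortical score, and 0 with counts summed per gene, with the replicate block and at an adjusted p under 0.01, and between 0 and 3 when each library was left out in turn. The count over all genes moved with it. Of 20290 genes, 218 were higher in the reported fit, 446 with DESeq2, 403 with the cortical score and 174 with the block. With counts summed per gene, 34 of 21470 were higher. For single members, 795 of 850 values kept direction and side of the threshold, 14 newly passed, 29 no longer passed and 12 changed sign. None of these 12 was called in either fit, and all were of log2 changes near 0. Between lesioned striata, *Pcsk1* (-0.03) was 0.0016 with counts summed per gene and 0.0049 with the cortical score, and ran from -0.18 to 0.057 when each library was left out, while *Chgb* (-0.05) ran from -0.098 to 0.027. Between unlesioned striata, *Vgf* (-0.02) was 0.063 with trends in GC content and length removed and ran from -0.070 to 0.084, and *Chga* (0.09) ran from -0.035 to 0.18. The change of the lesion effect of *Scg3* (0.01) ran from -0.017 to 0.041. The replicate block changed the calls of *Scg5* and *Cpe* in the chronic lesion effect, of *Pcsk2* in the change of the lesion effect and of *Scg5* in the unlesioned striatum (adjusted p = 0.0587), and no other. Between treatments the correlations of same-numbered libraries differed in sign. They were -0.0847, -0.0711 and 0.160 in the unlesioned and -0.0994, -0.224 and 0.356 in the lesioned striatum. Other-numbered libraries reached 0.162 and 0.441. Libraries of the 2 treatments share only a number. The change of *Scg5* in the unlesioned striatum was 0.30 with and without the block. A fit that removed trends with GC content and length was added after seeing the data, and there *Pam* was called higher in chronic than in acute lesioned libraries (0.22, adjusted p = 0.0366, within a range of 0.0177 to 0.178 over its alternatives). The cause of these shifts was not tested. With 3 libraries a group, the simulated interaction recovered 33.9% of changes of 0.6, so changes of that size can be missed.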
